A study of Mus musculus with 8 samples.

Results

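The Cyp3a gene cluster of mouse chromosome 5 was examined as an 800 kb window, from 146.13 to 146.93 Mb in build mm9, divided into 80 bins of 10 kb out of 246932 autosomal bins. The window edges were approximate and were set to hold Cyp3a11, Cyp3a16, Cyp3a25, Cyp3a41a and Cyp3a44, with Cyp3a11 taken to lie near 146.665 to 146.692 Mb. H3K27me3 had been profiled by chromatin immunoprecipitation and sequencing (ChIP-seq) in livers of male CD-1 (ICR) mice, an outbred stock, at 7 weeks of age. 3 mice had received TCPOBOP at 3 mg/kg and 3 had received the vehicle, 1% DMSO in corn oil, and their livers were taken 3 h after injection. The mice were wild type, and each library came from a single liver. The fragments of 600 to 1100 bp, digested to 500 bp, gave 1 library for each of these 6 livers, and the ChIP samples of TCPOBOP replicate 1 and vehicle replicate 1 gave a further library each, from fragments over 1100 bp digested to 200 bp. Each of these 8 libraries was available as a list of islands, stretches called as enriched, with a score for each island. The lists differed in the lowest score they held, which was 44.2, 71.0 and 77.7 in TCPOBOP replicates 1, 2 and 3, against 84.6, 48.3 and 41.0 in vehicle replicates 1, 2 and 3.

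Cyp3a genes encode cytochrome P450 monooxygenases of the endoplasmic reticulum that oxidise steroids, bile acids and many drugs. They lie side by side as a family of closely related copies. H3K27me3 is laid down on histone H3 by Polycomb repressive complex 2 and is typically found over silent genes. TCPOBOP activates the nuclear receptor CAR, which works in hepatocytes as a sensor of foreign compounds.

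The RefSeq gene order of assembly GRCm38.p6 placed 8 protein-coding Cyp3a genes and 2 Cyp3a pseudogenes between Zscan25 on the low-coordinate side and Gm5565 on the high-coordinate side. No other protein-coding gene lay between the Cyp3a genes. The order from low to high coordinate was Cyp3a57, Cyp3a16, Cyp3a41b, Cyp3a41a, Cyp3a44, Cyp3a11, Cyp3a25 and Cyp3a59. No mm9 annotation was used here, so gene positions other than the approximate one of Cyp3a11 were not set beside the islands, and it was taken that mm9 keeps this order. By that order 5 of the protein-coding Cyp3a genes precede Cyp3a11 and 2 follow it. Cyp3a11 is a main drug-metabolising Cyp3a enzyme of mouse liver and is induced by ligands of the receptors PXR and CAR. Cyp3a41a and Cyp3a44 are known for higher expression in female than in male adult mouse liver. Cyp3a16 is known as a form of fetal and newborn liver, and Cyp3a25 is expressed in adult liver of both sexes.

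The sequences before the start sites of the 5 genes show how alike the copies are, which bears on how short reads can be placed among them. RefSeq promoters of GRCm38.p6 were found for 5 of 5 genes, and the 150 bases just before each start are given 5′ to 3′ on the strand of the gene, from Cyp3a16 (chr5:145469724-145469873, minus strand), Cyp3a41a (chr5:145720137-145720286, minus strand), Cyp3a44 (chr5:145805875-145806024, minus strand), Cyp3a11 (chr5:145879855-145880004, minus strand) and Cyp3a25 (chr5:146009619-146009768, minus strand). These coordinates are of GRCm38.p6 and do not correspond to the mm9 positions of the islands. Capitals mark the letters AGGTCA and AGTTCA, half-sites to which nuclear receptors such as CAR can bind, and CAAAGTCCA, a form of the HNF4 motif, each on either strand.
Cyp3a16: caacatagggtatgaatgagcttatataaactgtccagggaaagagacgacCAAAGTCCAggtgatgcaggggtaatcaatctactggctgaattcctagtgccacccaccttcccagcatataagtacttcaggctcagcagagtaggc
Cyp3a41a: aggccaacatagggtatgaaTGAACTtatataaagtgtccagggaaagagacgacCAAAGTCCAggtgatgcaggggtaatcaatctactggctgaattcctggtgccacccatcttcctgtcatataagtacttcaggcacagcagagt
Cyp3a44: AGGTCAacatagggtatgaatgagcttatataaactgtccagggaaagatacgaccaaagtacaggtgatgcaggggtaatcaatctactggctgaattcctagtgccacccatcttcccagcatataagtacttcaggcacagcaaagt
Cyp3a11: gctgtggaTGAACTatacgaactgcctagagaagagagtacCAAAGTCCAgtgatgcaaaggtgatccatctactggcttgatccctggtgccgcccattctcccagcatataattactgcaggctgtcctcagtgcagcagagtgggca
Cyp3a25: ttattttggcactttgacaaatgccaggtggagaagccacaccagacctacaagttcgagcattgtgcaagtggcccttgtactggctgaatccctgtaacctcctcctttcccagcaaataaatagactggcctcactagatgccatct

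Over the 250 bases before the start, Cyp3a16, Cyp3a41a and Cyp3a44 were 91.3 to 94.4% identical to each other in global alignment. Cyp3a11 was 72.5 to 76.6% identical to these 3, and Cyp3a25 was 54.5 to 57.4% identical to the other members. Cyp3a41b, which is not among the 5, was 99.6% identical to Cyp3a41a. Cyp3a57, the first gene of the order, was 88.9% identical to Cyp3a25 and 90.1% identical to Cyp3a59. Of the 251 runs of 50 bases in the 300-base promoter (250 bases before to 50 after the start), 190 in Cyp3a41a had an exact copy in another Cyp3a promoter, against 26 in Cyp3a16, 33 in Cyp3a44, 19 in Cyp3a25 and 0 in Cyp3a11. The sources used here do not say how reads that match several copies were placed, so the cover of the near-identical genes carries that uncertainty. In the same 300 bases, CG dinucleotides, the base step that is dense in many Polycomb-bound promoters, numbered 0 to 2 in the 8 Cyp3a genes, and 23.3% of 32817 promoters of that length held 2 or fewer. CAAAGTCCA was present in Cyp3a11, Cyp3a16, Cyp3a41a and Cyp3a41b and in 0.475% of all promoters. AGGTCA was present in Cyp3a11, Cyp3a25, Cyp3a44, Cyp3a57 and Cyp3a59 and in 16.3% of all promoters. AGTTCA was present in Cyp3a11, Cyp3a41a and Cyp3a41b and in 14.0% of all promoters. The AGGTCA matches of Cyp3a11 and Cyp3a25 lie outside the bases printed above. These matches describe letters, not binding.

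H3K27me3 islands lay at the low-coordinate end of the window, and none was listed over the approximate place of Cyp3a11 in either treatment. Islands covered 5.10, 7.20 and 3.35% of the window in TCPOBOP replicates 1, 2 and 3, against 5.0, 7.80 and 6.75% in vehicle replicates 1, 2 and 3. The first 100 kb held all of this cover in 5 of the 6 livers. Its own cover was 40.8, 57.6 and 26.8% in the TCPOBOP livers and 40.0, 62.4 and 39.6% in the vehicle livers. The exception was vehicle replicate 3, which had a further island of 14.4 kb at chr5:146390401-146404800. That island scored 50.3 and ranked 9356 of 12430. Its score was below the lowest that the lists of TCPOBOP replicates 2 and 3 and vehicle replicate 1 held. The lists of TCPOBOP replicate 1 and vehicle replicate 2 reached lower, to 44.2 and 48.3, and held no island there either. Scores are relative to the background of each library, so their levels are not strictly comparable between lists.

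**Figure D1:**
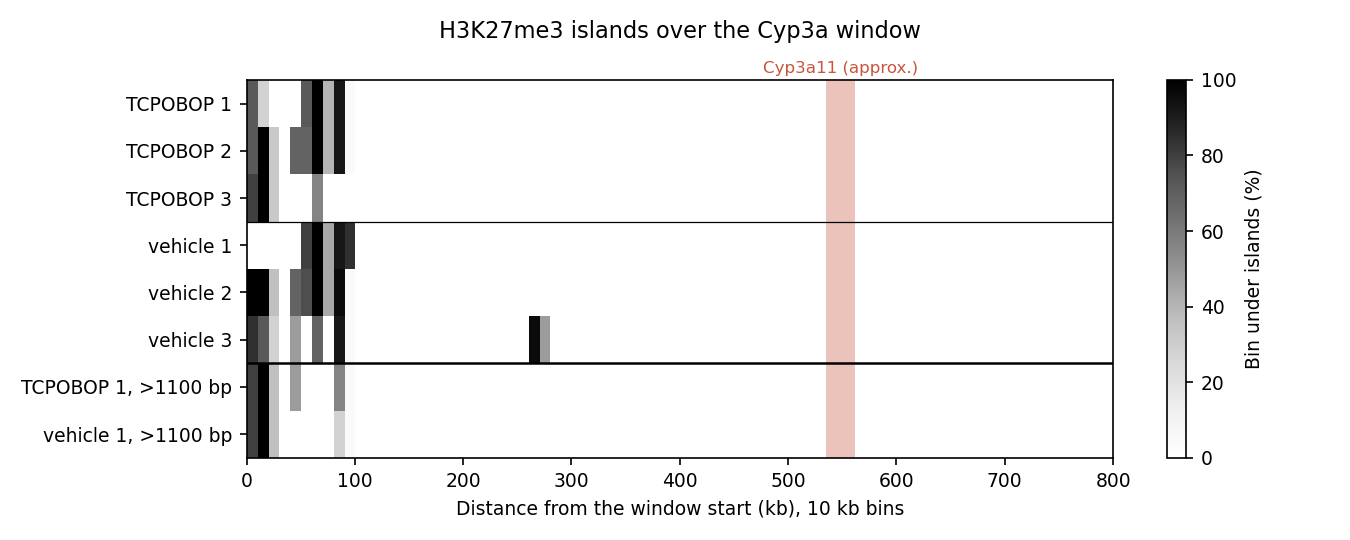
Percent of each 10 kb bin under islands (grey scale, 0 to 100%) along the window, with 1 row per library and the approximate place of Cyp3a11 shaded. Rows 1 to 3 are TCPOBOP livers and rows 4 to 6 vehicle livers (600 to 1100 bp), and the 2 lowest rows are the libraries of fragments over 1100 bp; cover sits in the first 100 kb except for 1 island of vehicle replicate 3.

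Cyp3a11 itself lay within a long stretch without islands. The 27 kb taken for Cyp3a11 was 0% covered in each of the 8 libraries, and so were the 238 kb that follow it to the end of the window, where the gene order places Cyp3a25 and Cyp3a59. Across all 8 lists the island-free stretch ran for 706 kb, from the end of the last island at 146404800 to the start of the next at 147110401. Within single lists of 600 to 1100 bp it was 928, 928 and 915 kb long in TCPOBOP replicates 1, 2 and 3, against 903, 902 and 742 kb in vehicle replicates 1, 2 and 3. Gaps of that length or longer were 319 of 19385 between the islands of the 8 lists combined (1.65%), and the longest such gap was 7888 kb. That share counts gaps, and long gaps hold more of the length than of the number. It therefore does not say how often a gene would lie in such a gap. Of the 80 bins of the window, 69 were at 0% in all 8 libraries (86.3%), against 59.5% of all autosomal bins. A listed 0% means no listed island and does not show that the mark was absent, since an island must pass the authors' threshold and rows may be missing from the lists used here.

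Cover on both sides of Cyp3a11 was compared within each liver. The 535 kb before Cyp3a11 was 7.63, 10.8 and 5.01% covered in the TCPOBOP livers and 7.48, 11.7 and 10.1% in the vehicle livers, while the 238 kb after it was at 0% in all 6. The difference was 8.77 ± 2.50 percentage points (SD, n = 6). It could not be negative with the second segment at 0%, so it is given as a description. With islands under a score of 84.6 removed from every list TCPOBOP replicate 3 had none left in the window, and the difference was 6.34 points. By the gene order Cyp3a16, Cyp3a41a and Cyp3a44 are on the side that held islands, but the islands began at the far end of that side: the last stretch under islands in more than 1 liver ended at 146220400, which is 445 kb short of Cyp3a11.

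The window was set against the rest of the autosomes in the same liver. It was covered less than the autosomes together in 6 of 6 livers, by 4.40 ± 2.48 percentage points (SD, n = 6, two-sided exact sign-flip permutation p = 0.03125, the smallest that 6 livers allow). The autosomes were 10.0, 11.3 and 7.05% covered in the TCPOBOP livers and 13.8, 11.5 and 7.93% in the vehicle livers. Autosomal cover was uneven, however, and with its edges as set the window was not low among stretches of its own length. Its mean over the 6 livers, 5.87%, exceeded that of 52.1% of 3077 autosomal tiles of 800 kb, and set against each liver's median tile it was 0.883 points higher (exact sign-flip p = 0.1875). The edges were approximate, and most cover lay near the low one. With the window narrowed by 50 kb on each side the difference from the autosomes was -6.23 points, and widened -4.79 (exact sign-flip p = 0.03125 for both). The altered windows were not set against tiles. Each list was also cut to the covered length of the shortest, 174 Mb, by keeping the islands of highest score per kb. The shortest list, that of TCPOBOP replicate 3, was thus left whole. At this equal covered length the difference from the autosomes was -1.97 points (exact sign-flip p = 0.0625).

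**Figure D2:**
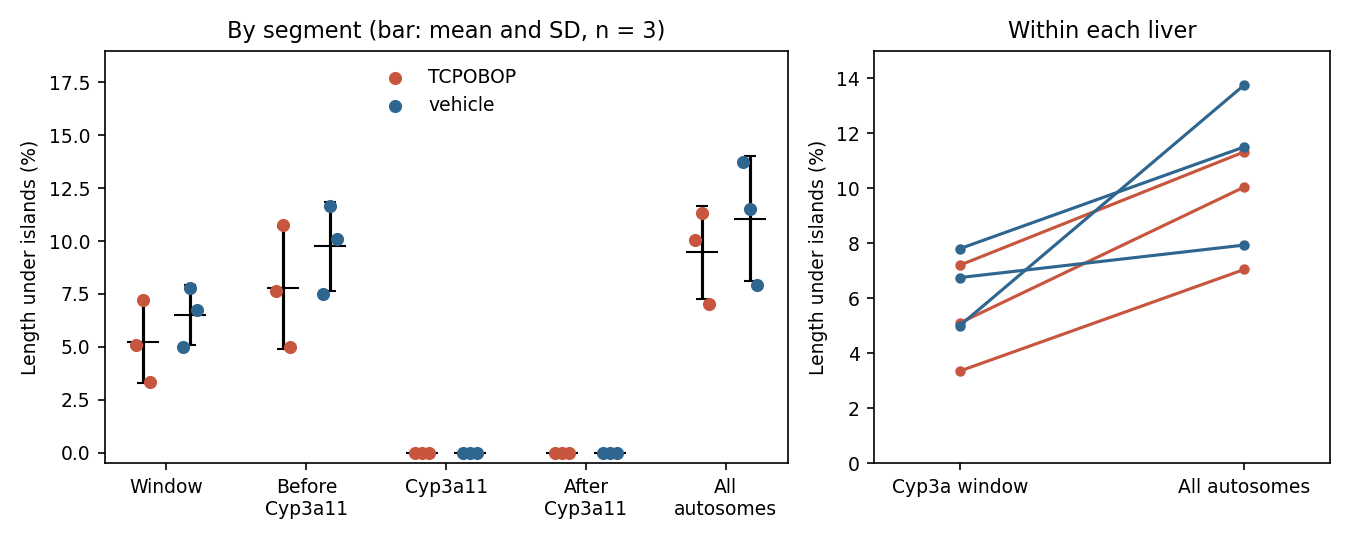
Percent of length under islands in single livers (points; TCPOBOP left and red, vehicle right and blue) for the window, its 3 segments and all autosomes, with mean and SD of 3 livers as bars; on the right, lines join the window and the autosomes of the same liver. Cyp3a11 and the segment after it are at 0% in all 6 livers, and every line rises from the window to the autosomes.

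The flanks of the window were covered on both sides. The 800 kb below it were 6.40, 5.85 and 1.90% covered in the TCPOBOP livers and 8.10, 7.50 and 4.0% in the vehicle livers. The 800 kb above it were 7.85, 24.2 and 8.0% covered in the TCPOBOP livers and 26.2, 25.4 and 14.6% in the vehicle livers. A window of 50 kb over Cyp2b10 on chromosome 7, another P450 gene induced through CAR, was 19.2 to 32.8% covered in TCPOBOP livers and 38.4 to 48.0% in vehicle livers, where Cyp3a11 had 0% in both. The Cyp2b10 window was 50 kb long and the Cyp3a11 stretch 27 kb. At Cyp2b10 every TCPOBOP liver lay below every vehicle liver, as in 3.73% of the autosomal 10 kb bins tested. No such share was computed for stretches of 50 kb. That pair was set side by side with the Cyp2b10 values already known, so no test was made. An approximate window over Alb and Afp, genes for secreted proteins of hepatocytes, was at 0% in all 8 libraries, as were 59.5% of autosomal bins, so it does not check the tissue.

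The islands of the first 100 kb fell at 4 recurrent places. In all, 21 islands of the 6 livers and 6 of the libraries over 1100 bp touched the window. The most recurrent place was chr5:146190001-146195600, 5.6 kb long, which was under an island in 6 of 6 livers. The islands over it were 21.2, 20.8 and 5.6 kb wide in TCPOBOP replicates 1, 2 and 3, against 22.4, 22.0 and 6.8 kb in vehicle replicates 1, 2 and 3. By score they ranked 3206 of 13759, 3509 of 10197 and 6275 of 6295 in the TCPOBOP lists, against ranks 4578, 1843 and 3707 in the vehicle lists of 10057, 14748 and 12430 islands. The narrow islands of TCPOBOP replicate 3 and vehicle replicate 3 both began at 146190001, whereas those of the other 4 livers began at 146182001 to 146183201 and ended at 146204000 or 146204400. The island of TCPOBOP replicate 3 scored 77.8, just over the lowest score of its list, 77.7, so it passed narrowly. By score per kb the islands over this place ranked 5686, 2769 and 76 in the TCPOBOP lists, against ranks 3581, 1913 and 467 in the vehicle lists.

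The next place, chr5:146210801-146220400, was under an island in 5 of 6 livers. Its island was 9.6 kb wide with identical edges in TCPOBOP replicates 1 and 2 and vehicle replicate 3, 10.0 kb in vehicle replicate 2 and 17.6 kb in vehicle replicate 1, and TCPOBOP replicate 3 had none. The edge at 146220400 was shared by 6 of the 8 libraries, 4 livers and both libraries over 1100 bp. By score these islands ranked 3943 of 13759 and 4292 of 10197 in TCPOBOP replicates 1 and 2, against ranks 3733, 2756 and 3627 in the 3 vehicle lists. Ranked by score per kb, which favours narrow islands, they stood at rank 1068 and 322 in the TCPOBOP lists, against ranks 1311, 414 and 1523 in the vehicle lists.

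The third place lay at the very edge of the window. The stretch chr5:146132801-146142800 was under an island in 3 of 3 TCPOBOP livers and 2 of 3 vehicle livers, vehicle replicate 1 being the exception. Islands here were 10.0, 20.4 and 21.2 kb wide in the TCPOBOP livers and 32.0 and 11.6 kb in vehicle replicates 2 and 3, the last with a second island of 6.8 kb beside it. The island of vehicle replicate 2 started outside the window, at 146121601. In TCPOBOP replicate 3 the island scored 77.9 and ranked 6261 of 6295. The fourth place, chr5:146170801-146175200, was found in TCPOBOP replicate 2 and in vehicle replicates 2 and 3. Its island in TCPOBOP replicate 2 ranked 10190 of 10197.

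**Figure D3:**
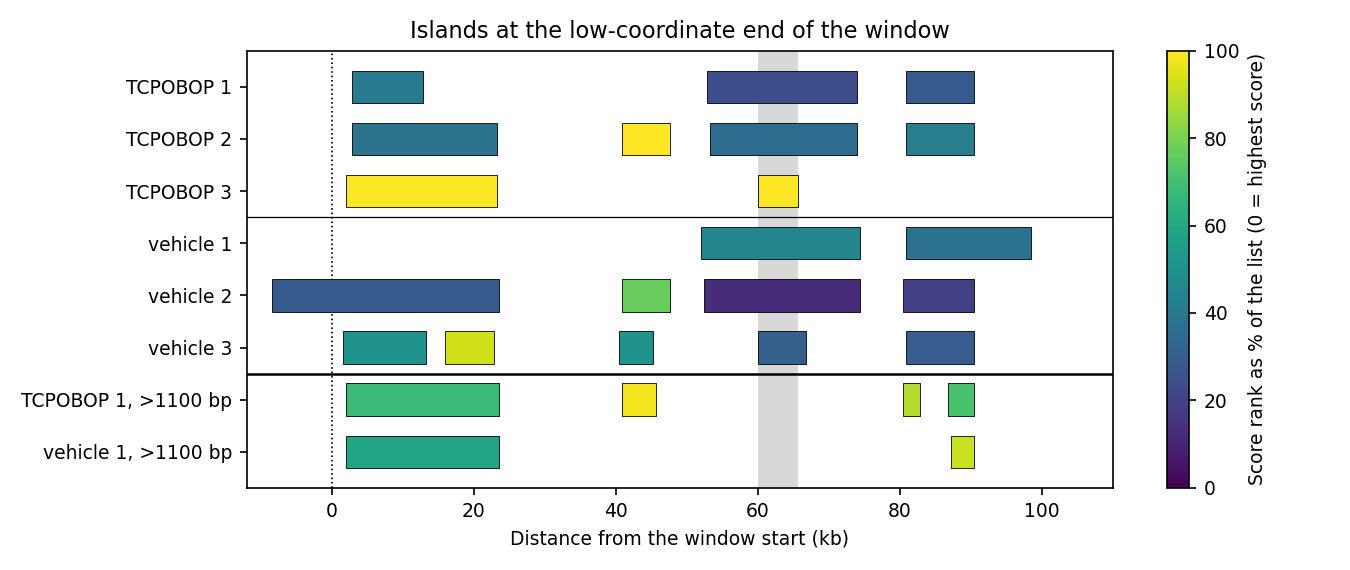
Islands of each library over the first 110 kb from the window start (horizontal axis, kb), coloured by their score rank as a percent of the list, with TCPOBOP livers above vehicle livers and the libraries over 1100 bp at the bottom. The grey band is the 5.6 kb stretch found in 6 of 6 livers and in neither library over 1100 bp; the island of vehicle replicate 3 at 260 kb is outside the plot.

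Most of the cover in the window was shared by several livers but little of it by all. Of 85.6 kb under an island in any liver, 5.6 kb (6.54%) was covered in all 6 and 25.6 kb (29.9%) in 1 alone, against 12.1 and 32.4% of the 536 Mb covered in any liver over the autosomes. Within the window the Jaccard index, shared length over joint length, averaged 0.435 over the 6 pairs of livers of the same treatment and 0.498 over the 9 pairs of different treatments. The highest index, 0.923, joined TCPOBOP replicate 2 and vehicle replicate 2. The lowest, 0.0915, joined TCPOBOP replicate 3 and vehicle replicate 1.

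TCPOBOP was compared with vehicle over the window and its segments. Window cover averaged 5.22 ± 1.93% in TCPOBOP livers and 6.52 ± 1.41% in vehicle livers (SD, n = 3 each). The difference, -1.30 percentage points, was smaller than the spread between livers (two-sided exact permutation p = 0.5, adjusted over 4 values 1, smallest p possible 0.1). Before Cyp3a11 the means were 7.80 ± 2.88% in TCPOBOP livers and 9.74 ± 2.12% in vehicle livers (SD, n = 3 each, difference -1.94 points, exact permutation p = 0.5, adjusted 1). The treatments overlapped in both. Over Cyp3a11 and after it all livers were at 0%, so there was no difference to test. The window difference was 0.283 points at equal covered length (exact permutation p = 0.7). That cut left out the vehicle replicate 2 island at the window edge and the 14.4 kb island of vehicle replicate 3. The lists were also split by their lowest score, a split chosen after seeing the data that leaves 1 liver in an arm on each side. Among the 3 lists with the higher lowest scores these were 7.20 and 3.35% for TCPOBOP and 5.0% for vehicle (difference 0.275 points), and among the 3 with the lower 5.10% for TCPOBOP and 7.80 and 6.75% for vehicle (difference -2.18 points). The difference was -2.29 points without TCPOBOP replicate 2 and -0.367 without TCPOBOP replicate 3, and -2.06 without vehicle replicate 1 and -0.658 without vehicle replicate 2.

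Single bins gave no call either. An island reached 11 of the 80 bins in at least 1 liver (13.8%, against 26.6% of all autosomal bins), and 6 of these 11 were covered to 50% or more in at least 2 livers and entered a limma fit with 36824 autosomal bins. At an adjusted p of 0.05 limma called 0 of the 6 as higher in TCPOBOP livers and 0 as lower, as it called 0% of the 36824 in each direction, and 0 of the 6 had an unadjusted p under 0.05, against 0.769% higher and 2.57% lower of all bins tested. That balance over all bins, 283 higher and 945 lower, turned to 740 higher and 323 lower once each library was centred on its mean, while the window still had 0. Every TCPOBOP liver lay above every vehicle liver in 0 of the 6 bins and below every vehicle liver in 0, against 1.24% and 3.73% of bins tested. Bins at 50% or more in all livers of 1 treatment and at 0% in all of the other numbered 0 of 80 in each direction, against 0.0198% for TCPOBOP and 0.0964% for vehicle over all autosomal bins. The 6 bins had a median difference of -4.67 points, against -4.0 points over all bins tested.

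The bins of the recurrent places show how the livers varied. The bin from 146190001 to 146200000, the only bin of the window at 50% or more in all 6 livers (1 of 80, against 2.87% of autosomal bins), was 100, 100 and 56% covered with TCPOBOP and 100, 100 and 68% with vehicle. The groups were nearly alike, with a difference of -4.0 points (limma SE 15.4, adjusted p = 1). The bin from 146210001 to 146220000 was 92, 92 and 0% covered with TCPOBOP and 92, 96 and 92% with vehicle. Here 1 liver, TCPOBOP replicate 3, made the difference of -32.0 points (limma SE 28.3, adjusted p = 0.915), which was -1.33 points without it. TCPOBOP replicate 3 had the shortest list, 6295 islands against 10057 to 14748 in the other livers, and whether list length played a part was not tested.

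The values of further bins follow. The first bin of the window and the next, from 146140001, were the only bins with a higher TCPOBOP mean. The first was 72, 72 and 80% covered with TCPOBOP and 0, 100 and 84% with vehicle, and the next 28, 100 and 100% with TCPOBOP and 0, 100 and 72% with vehicle. Both differences, 13.3 and 18.7 points, turned to -17.3 and -10.0 points without vehicle replicate 1, whose list held no island there. At equal covered length they were 46.7 and 52.0 points (limma adjusted p = 0.881 for both). That cut left out the single island of vehicle replicate 2 over both bins, which scored 4.74 per kb. The list of TCPOBOP replicate 3, which was not cut, kept its island there at 3.68 per kb. The bin from 146180001 was 72, 68 and 0% covered with TCPOBOP and 80, 76 and 0% with vehicle. The bin from 146170001 was 0, 68 and 0% covered with TCPOBOP and 0, 68 and 48% with vehicle. The bin from 146220001 was 4, 4 and 0% covered with TCPOBOP and 84, 4 and 4% with vehicle, and those from 146390001 and 146400001 were covered in vehicle replicate 3 alone, to 96 and 48%.

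**Figure D4:**
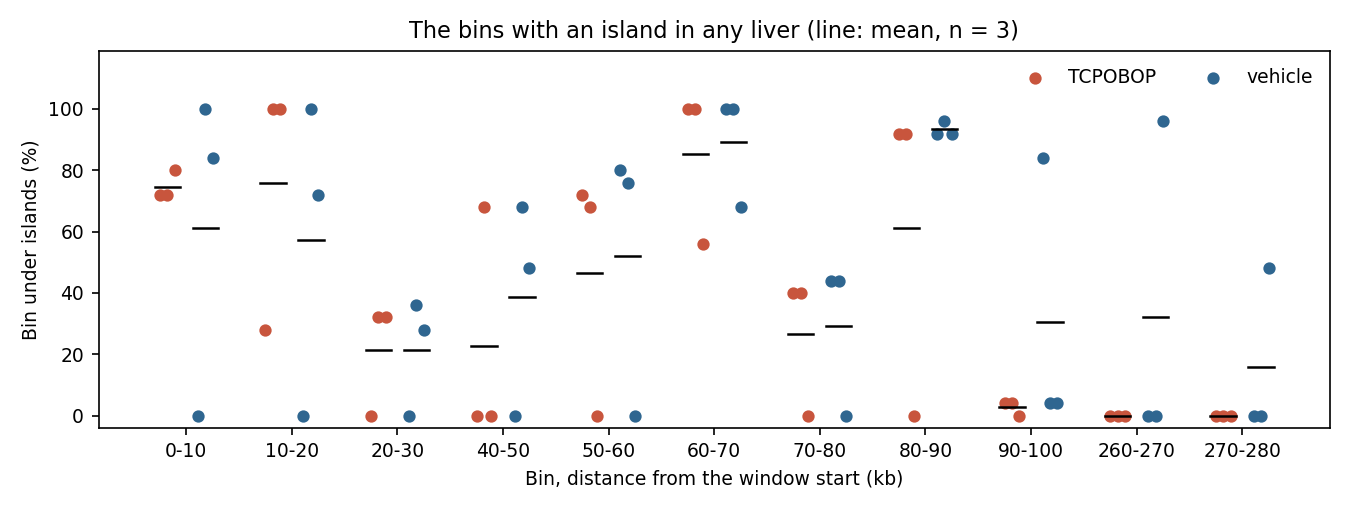
Percent of the bin under islands in each liver (points; TCPOBOP left and red, vehicle right and blue) for the 11 bins with an island in any liver, with the mean of 3 livers as a line. The groups overlap or tie in each of the 11 bins. In several bins a single liver stands away from the rest: at 0 to 10, 80 to 90, 90 to 100, 260 to 270 and 270 to 280 kb.

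The libraries of longer fragments held less cover over the window than over the autosomes. Fragments over 1100 bp covered 27.3% of the autosomes in the TCPOBOP liver and 26.4% in the vehicle liver, and 4.05% of the window in the TCPOBOP liver and 3.10% in the vehicle liver. Among autosomal tiles of 800 kb, 21.1% had less cover than the window in the TCPOBOP library and 21.9% in the vehicle library. Of the 40.8 kb under 600 to 1100 bp islands in TCPOBOP replicate 1, 15.6 kb (38.2%) was also under islands of the longer fragments of that ChIP sample, against 86.0% over the autosomes. In vehicle replicate 1 it was 3.20 of 40.0 kb (8.0%), against 83.3% over the autosomes. In the other direction, 48.1% of the longer-fragment cover of the window lay under 600 to 1100 bp islands in the TCPOBOP liver, against 31.6% over the autosomes, and 12.9% in the vehicle liver, against 43.3% over the autosomes. Both directions were thus lower than over the autosomes in the vehicle liver, and only the first in the TCPOBOP liver. With 1 library of longer fragments per treatment these values had no replicate check. The 5.6 kb stretch covered in 6 of 6 livers lay under no island of either longer-fragment library, as did 2.33% of the 64.7 Mb covered in all 6 livers over the autosomes. Both longer-fragment libraries held the same island of 21.6 kb at chr5:146132001-146153600, a place where the 600 to 1100 bp list of vehicle replicate 1 had none.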

How the data were processed

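H3K27me3 ChIP-seq island lists of 8 mouse liver libraries were used. Per the submitters' processing notes the build was mm9 and the tools were Bowtie2 2.3.2 and SICER 1.1, with roles not given. The deposited score is the authors' value for an island relative to the background of its own library, so it was used within a list to describe and rank islands. In alternatives it served across lists as a score minimum, and per kb to choose the islands kept at equal covered length. Lists hold no read counts, so depth is unknown and no counting interval was computed. Islands were called per library; whether an input library was used is not stated in the sources at hand.

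Cover was the percent of a stretch under islands. Autosomal length ran to the last listed island of each chromosome. For treatments (3 livers each) the test was a two-sided exact permutation over 20 labellings, and for stretches within a liver a two-sided exact sign-flip permutation over 64 patterns. limma 3.58.1 (R 4.3.3, variance trend, Benjamini-Hochberg adjustment) was fitted to the covered fraction of 36824 bins. A check on simulated data read back shifts that the simulation had fixed, so it says nothing of the power to find a change. Promoters were aligned with Biopython 1.88; Python 3.11.15 with pandas 2.3.3 and numpy 2.4.6 computed the other values, and matplotlib 3.10.9 drew the figures.

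The window, the genes and the tests were chosen with earlier results of these data known. Text named the 5 genes and their neighbours, the 5 bins of highest mean cover, the 5 of largest difference per direction, and the widest and highest-ranked islands. The 4 recurrent places and the first 100 kb were chosen after their values were seen.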

Additional observations from a re-analysis of the deposited data

How the results depend on the processing

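The split by lowest score, the comparisons with chromosome 5 and with the median tile, centring of libraries and the bins present with 1 liver left out were added after the data had been seen. The difference in window cover between TCPOBOP and vehicle, -1.30 points, was -2.29 to -0.367 when livers were left out in turn. It turned to 0.283 at equal covered length and 0.275 among the lists with the higher lowest scores. With the window narrowed by 50 kb on each side it was -1.71, and with it widened -1.67. Merging both libraries of each replicate 1 gave -1.50, and the score minimum -0.85. Before Cyp3a11 the difference ranged from -3.43 to -0.548 when livers were left out. There it turned to 0.424 at equal covered length and 0.411 among the lists with the higher lowest scores. At equal covered length the cut had left out the vehicle replicate 2 island at the window edge, which scored 4.74 per kb. It had also left out the 14.4 kb island of vehicle replicate 3, at 3.49 per kb. The list of TCPOBOP replicate 3, which was not cut, kept its edge island at 3.68 per kb. The cause of these turns was otherwise not tested. Of the 6 bins fitted, those from 146140001, 146180001 and 146190001 had differences of -10.0 to 42.7, -31.3 to 18 and -14.7 to 10.7 points with 1 liver left out, and the first bin of the window -17.3 to 32.7; at equal covered length the first bin and that from 146140001 were at 46.7 and 52.0 points. The window differed from the autosomes by -5.05 to -3.53 points with 1 liver left out, -1.97 at equal covered length and 0.883 against the median tile. Against the autosomes it was -6.23 with the window narrowed by 50 kb on each side and -4.79 with it widened. With both libraries of each replicate 1 merged it was -9.21. The segments beside Cyp3a11 differed by 8.19 to 9.53 points with 1 liver left out. That difference was 6.34 with the score minimum and 5.83 with the window narrowed, and its sign is fixed by the 0% on the other side. No sign-flip p below 0.0625 is possible with 5 livers. Bins in all livers, 1 in the window, numbered 0 at 80% cover and 0 with the score minimum, and 1 to 2 with 1 liver left out. Bins below without overlap, 0, numbered 0 to 1 with 1 liver left out. limma called 0 bins of the window under all 14 alternatives; over the autosomes it called 0 in 13 of them and 0 to 494 with 1 liver left out, the 494 without vehicle replicate 3. Same-numbered livers deviated with correlations of 0.0268, 0.0159 and 0.0599, no sign of pairing; with the replicate block the window difference was -1.30 points (exact sign-flip p = 0.5) and limma called 0 bins. With 3 livers against 3 the smallest exact permutation p is 0.1, so no change of any size could pass 0.05 in that test; depth is unknown.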
